A study of Mus musculus with 4 samples.

Results

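Chemokines are small secreted proteins that steer the migration of leukocytes and other cells, and they are named by the spacing of their first cysteines (CC, CXC, CX3C and XC). They signal through G-protein-coupled receptors of the matching class, while the atypical receptors, the Ackr genes, bind chemokines without classical G-protein signalling and take up or transport them. In the lung, ligands come mainly from epithelium, endothelium, fibroblasts and macrophages, and most signalling receptors are carried by leukocytes. The genes described here are all those whose GRCm38 symbol begins with Ccl, Cxcl, Cx3cl, Xcl, Ccr, Cxcr, Cx3cr, Xcr or Ackr followed by a digit. The rule found 70 of the 47729 gene records counted in each library, 47 records of ligands and 23 of receptors, under 65 distinct symbols.

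RNA was measured by sequencing in 4 libraries of lung, 2 labelled Normoxic and 2 labelled Sugen-Hypoxic. Sugen is an inhibitor of VEGF receptors that is given with hypoxia to produce pulmonary hypertension in rodents, and the labels give it only together with hypoxia, with no dose, oxygen level, duration or age. All libraries share the strain label BL/6, the genotype label Control (Rosa) and the title code MSX1, which the labels do not explain. Libraries with the KCNK3 mutation named in the series' design were not analysed here. Each library pools animals by its sex label: 3 females in normoxic replicate 1, 1 female and 2 males in normoxic replicate 2, and 2 males in each treated replicate. Treatment and pool sex therefore differ together and cannot be told apart by the test of the 2 groups. Replicate numbers are names only, and p-values measure only the spread between these pools.

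Gene counts summed to 57.3 to 67.1 M per library (M, 1000000 reads), and levels are given in CPM, counts scaled to 1000000 gene counts per library. The extraction text of the labels names kidneys while the source label is lung. The summed level of 8 lung markers was 28876 to 36240 CPM, with the surfactant gene Sftpc at 11239 to 12003 CPM, and that of 8 kidney markers was 0.337 to 1.01 CPM with Kap, a kidney androgen-regulated gene, at 0 in all 4 libraries. Xist, which females express, was at 503 CPM in normoxic replicate 1, 153 CPM in normoxic replicate 2 and 0.488 and 0.505 CPM after treatment.

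Of the 70 records, 53 had enough reads to be tested, 32 ligands and 21 receptors, and 15 passed edgeR's quasi-likelihood test at an adjusted p of 0.05 (Benjamini-Hochberg over all genes). That is to be read against 11.5% of all 18783 genes tested, of which 5.51% were higher and 6.01% lower after treatment. Among ligands 5 rose and 2 fell, and among receptors 1 rose and 7 fell. The median log2 fold change (Sugen-Hypoxic over Normoxic) was 0.22 for the tested ligands and -0.91 for the tested receptors, against -0.00 for all genes. Of the 17 records that were not tested, 9 were at 0 reads in every library and 8 had at most 30 reads in all. The ligands' values were positive in 20 of 32 cases, and those of the receptors negative in 16 of 21. The 7 receptors that fell were 33.3% of those tested, against the 6.01% of all genes, and the 5 ligands that rose were 15.6%, against 5.51%. The groups' CPM values did not overlap in 18 of the 32 ligands (12 higher, 6 lower) and in 17 of the 21 receptors (3 higher, 14 lower), against 61.3% of all genes (21.3% higher, 40.0% lower). In bulk lung, fewer cells of a type and less RNA per cell cannot be told apart.

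**Figure D1:**
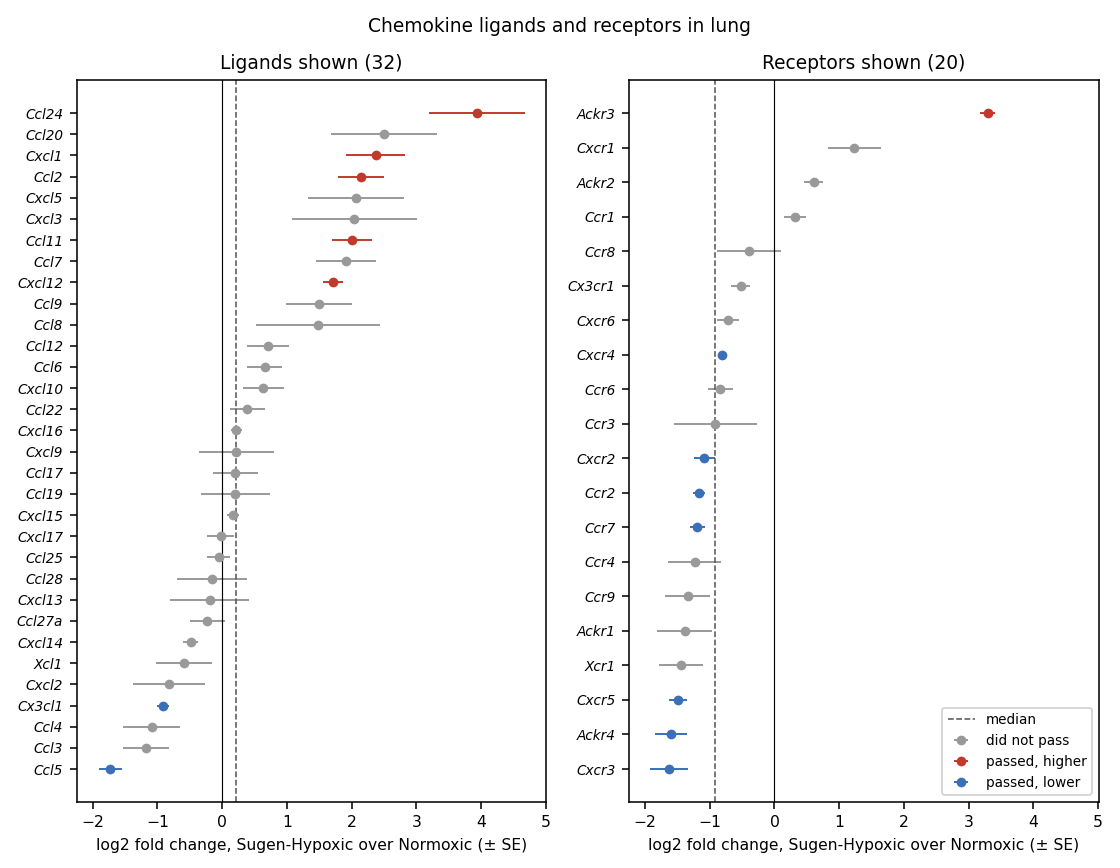
Log2 fold change (Sugen-Hypoxic over Normoxic) with its standard error for the 32 ligands (left) and 20 of the 21 receptors (right) that were tested, in colour where the adjusted p was below 0.05, with a dashed line at the median of all tested. The receptors lie mostly left of 0 (median -0.91) with Ackr3 furthest to the right at 3.29, while the ligands spread from -1.73 to 3.94.

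The number of calls differed with the library left out. In the fit without normoxic replicate 1, 1 of the 15 genes kept its call (Ackr3), and in that without normoxic replicate 2 it was 5 (Ackr3, Ccl5, Cx3cl1, Ccr2 and Cxcr5). Over all genes, calls were likewise fewer without a normoxic replicate than in the fit of all 4 libraries, and more without a treated one. All 15 genes kept their direction in each of the 4 fits with 1 library left out. A fit that also held the share of males in each pool, with 1 residual degree of freedom, called 0 of the 53 members and 11 of all genes in edgeR's quasi-likelihood test. In it 15 of the 53 members were at an unadjusted p below 0.05, and these need not be the 15 called in the main fit. The share of all genes at that level was not counted, so this number has no background to be read against. DESeq2 without this term called 24 of 61 members and 3036 of 27235 genes. With the share of males held, the 15 genes called in the main fit again kept their direction, with adjusted p from 0.0751 to 0.633 in edgeR's test.

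The ligand Cxcl12 and its atypical receptor Ackr3 rose, and its signalling receptor Cxcr4 fell. Cxcl12 (GRCm38 chromosome 6, 117168535 to 117181367, plus strand), a stromal chemokine that retains and guides leukocytes, progenitors and endothelial cells, was at 312 and 378 CPM in the normoxic libraries and at 1202 and 947 CPM in the treated libraries. Ackr3 (chromosome 1, 90203980 to 90216751, plus strand), which takes up Cxcl12 and lowers its extracellular level, was at 31.9 and 29.4 CPM in normoxia and at 312 and 261 CPM after treatment. Cxcr4 (chromosome 1, 128588199 to 128592293, minus strand), the receptor for Cxcl12 on leukocytes and endothelium, went the other way, from 88.7 and 89.2 CPM to 48.4 and 47.8 CPM. In none of the 3 genes did the groups overlap, as was so for 61.3% of all genes tested.

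Ackr3 rose 9.81-fold, with the smallest adjusted p of the 53 (log2 value and SE 3.29 ± 0.12, adjusted p = 0.000968 in edgeR's test). Cxcl12 rose 3.27-fold (1.71 ± 0.16, adjusted p = 0.00606) and Cxcr4 fell 1.76-fold (-0.82 ± 0.06, adjusted p = 0.00406). Means were 345 ± 46.5 and 1075 ± 180 CPM for Cxcl12, 30.6 ± 1.78 and 286 ± 36.0 CPM for Ackr3, and 88.9 ± 0.379 and 48.1 ± 0.462 CPM for Cxcr4 (SD, n = 2 each). Without normoxic replicate 1 or 2 the adjusted p was 0.021 and 0.019 for Ackr3, 0.0809 and 0.0588 for Cxcl12, and 0.0643 and 0.0516 for Cxcr4. The fit with the share of males left their log2 fold changes at 3.43, 1.46 and -0.81, with adjusted p = 0.0751, 0.364 and 0.294.

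Per length of the gene, the level of Ackr3 was below that of Cxcr4 in normoxia and above it after treatment. The scale here is reads per kilobase of annotated exon, scaled to a sum of 1000000 over all genes of a library. On it Ackr3 stood at 0.194 and 0.178 of the level of Cxcr4 in the normoxic libraries and at 3.48 and 2.95 times that level in the treated libraries. Ackr3 supplied 6.53 and 5.93% of the summed level of all 23 receptors in normoxia and 50.2 and 46.1% after treatment. Without Ackr3 the summed receptor level was 446.5 and 462 in normoxia and 309 and 307 after treatment.

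**Figure D2:**
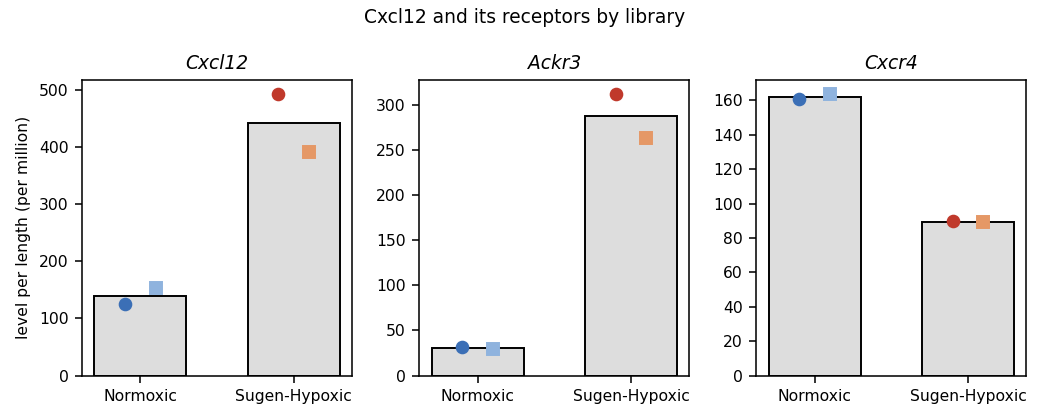
Level per length (reads per kilobase of exon, scaled to a sum of 1000000) of Cxcl12, Ackr3 and Cxcr4 in each library, with bars at the group means, circles for replicate 1 and squares for replicate 2. Cxcl12 and Ackr3 stand higher in both treated libraries (492 and 391 against 125 and 153, and 311 and 263 against 31.2 and 29.1) and Cxcr4 lower (89.6 and 89.2 against 161 and 164).

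The promoters of these 3 genes are shown with that of Cxcl1, an inflammatory ligand that also rose, to set the letters of known response elements beside the changes. Each sequence is the 250 bases before the RefSeq transcription start, 5′ to 3′ on the gene's own strand. Capitals mark ACGTG and GCGTG, the core letters bound by hypoxia-inducible factors (GCGTG is also the core of the element of the aryl hydrocarbon receptor), and a form of the NF-kB element, GGGA and CC with any 4 bases between them. Each was searched on both strands.
Cxcl12 (GRCm38.p6, chr6:117168285-117168534, plus strand): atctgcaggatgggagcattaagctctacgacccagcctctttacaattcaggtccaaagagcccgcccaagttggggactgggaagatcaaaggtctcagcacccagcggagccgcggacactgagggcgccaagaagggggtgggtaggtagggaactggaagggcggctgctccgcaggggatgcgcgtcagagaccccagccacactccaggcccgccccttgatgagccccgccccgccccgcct
Ackr3 (GRCm38.p6, chr1:90203730-90203979, plus strand): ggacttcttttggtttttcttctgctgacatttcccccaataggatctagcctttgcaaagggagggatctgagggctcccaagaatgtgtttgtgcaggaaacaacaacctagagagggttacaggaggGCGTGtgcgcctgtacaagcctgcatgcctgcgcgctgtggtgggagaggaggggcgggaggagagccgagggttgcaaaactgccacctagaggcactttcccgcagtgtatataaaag
Cxcr4 (GRCm38.p6, chr1:128592300-128592549, minus strand): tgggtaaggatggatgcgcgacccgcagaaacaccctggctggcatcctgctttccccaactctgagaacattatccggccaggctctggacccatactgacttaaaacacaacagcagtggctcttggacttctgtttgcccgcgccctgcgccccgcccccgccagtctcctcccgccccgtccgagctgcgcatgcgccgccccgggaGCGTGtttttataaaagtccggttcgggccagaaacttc
Cxcl1 (GRCm38.p6, chr5:90890995-90891244, plus strand): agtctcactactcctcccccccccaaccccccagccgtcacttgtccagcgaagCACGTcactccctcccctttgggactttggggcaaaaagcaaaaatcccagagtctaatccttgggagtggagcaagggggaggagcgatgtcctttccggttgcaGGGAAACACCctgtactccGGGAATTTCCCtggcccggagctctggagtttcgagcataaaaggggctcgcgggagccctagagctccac
The window of Cxcl12 held no match to any of the 3 motifs. The Ackr3 window held 1 match to GCGTG, from 120 to 116 bases before the start, and the Cxcr4 window 1 match, from 39 to 35 bases before it, so the gene that rose and the gene that fell hold the same letters. The Cxcl1 window held ACGTG on the opposite strand, from 196 to 192 bases before the start, and 3 matches to the NF-kB form, of which those starting 71 and 70 bases before it overlap each other. Over all 32851 windows of this length in the RefSeq table, 16.6% held ACGTG, 28.2% GCGTG and 17.6% the NF-kB form. Promoters were found for 46 of the 65 symbols, and 6, 17 and 17 of these held the 3 motifs. Of the 15 called members 9 had a promoter, and 2, 3 and 1 of these held them. Cxcl1 was the only called member with the NF-kB form. A match is a run of letters and not a measured binding site.

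The inflammatory ligands Ccl2, Ccl11, Ccl24 and Cxcl1 rose from low levels. Of 4 ligands grouped here as attracting monocytes, Ccl2, the main ligand of Ccr2, passed the test. It was at 0.655 and 0.412 CPM in normoxia and at 1.90 and 2.65 CPM after treatment, groups that did not overlap, and rose 4.43-fold (2.15 ± 0.35, adjusted p = 0.0215 in edgeR's test). Ccl7, Ccl12 and Ccl8 had log2 fold changes of 1.91, 0.70 and 1.48 and did not pass the same test (adjusted p = 0.0561, 0.211 and 0.353). Among the known pairs set out below, Ccl8 stands with Ccr8 and not with Ccr2. Without normoxic replicate 1 or 2 the adjusted p of Ccl2 was 0.116 and 0.154.

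Among ligands of eosinophils and type 2 responses 2 of the 4 tested rose. Ccl11, eotaxin, a ligand of Ccr3 on eosinophils, was at 2.59 and 3.68 CPM in normoxia and at 8.76 and 15.2 CPM after treatment. Its 4.02-fold rise had adjusted p = 0.0184 in edgeR's test. Ccl24, eotaxin 2, made chiefly by macrophages, was at 0.596 and 0.344 CPM in normoxia and at 2.77 and 11.2 CPM after treatment. Both treated libraries lay above both normoxic libraries, and the treated libraries themselves lay 4.04-fold apart. Ccl24 rose 15.3-fold (3.94 ± 0.74, adjusted p = 0.0297), and its log2 fold change went to 2.63 without treated replicate 2 and to 4.61 without treated replicate 1. Without normoxic replicate 1 or 2 the adjusted p was 0.172 and 0.196 for Ccl24 and 0.146 and 0.0997 for Ccl11.

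The Ccr4 ligands made by dendritic cells and macrophages did not pass. Ccl17 was at 4.23 and 4.93 CPM in normoxia and at 3.26 and 6.79 CPM after treatment, so that the treated libraries lay on either side of the normoxic ones. Ccl22 had a log2 fold change of 0.39 (adjusted p = 0.378). Ccr3, the eosinophil receptor for both eotaxins, had a value of -0.91 with adjusted p = 0.390. The list of 8 eosinophil, basophil and mast cell markers summed to 26.6 and 24.4 CPM in normoxia and to 20.8 and 23.0 CPM after treatment. Siglecf, also counted here as an alveolar macrophage marker, made 18.7 to 20.7 CPM of these sums. Of the 7 tested markers 0 were called higher and 2 lower, and 6 had negative log2 fold changes (median -0.74).

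Of the 4 members grouped here as attracting neutrophils through Cxcr2, which are not all ligands of that receptor, Cxcl1 rose. It was at 0.283 and 0.653 CPM in normoxia and at 1.88 and 2.71 CPM after treatment, a 5.18-fold rise (2.37 ± 0.45, adjusted p = 0.0314 in edgeR's test). The 2 normoxic libraries of Cxcl1 differed by more than the 2 treated ones in proportion, and its log2 fold change was 3.07 without normoxic replicate 2 (adjusted p = 0.0896) and 1.89 without normoxic replicate 1 (adjusted p = 0.169), and 1.30 with the share of males in the fit (adjusted p = 0.633). Cxcl5, Cxcl3 and Cxcl2 had values of 2.07, 2.04 and -0.82 and did not pass (adjusted p = 0.132, 0.223 and 0.378). Cxcr2, their receptor on neutrophils, fell from 36.4 and 47.9 CPM to 20.7 and 17.1 CPM, 2.12-fold lower (-1.08 ± 0.16, adjusted p = 0.0169, and 0.0700 and 0.0991 without normoxic replicate 1 or 2). Cxcr1, the second neutrophil receptor of this class, had a value of 1.24 that did not pass (adjusted p = 0.114).

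**Figure D3:**
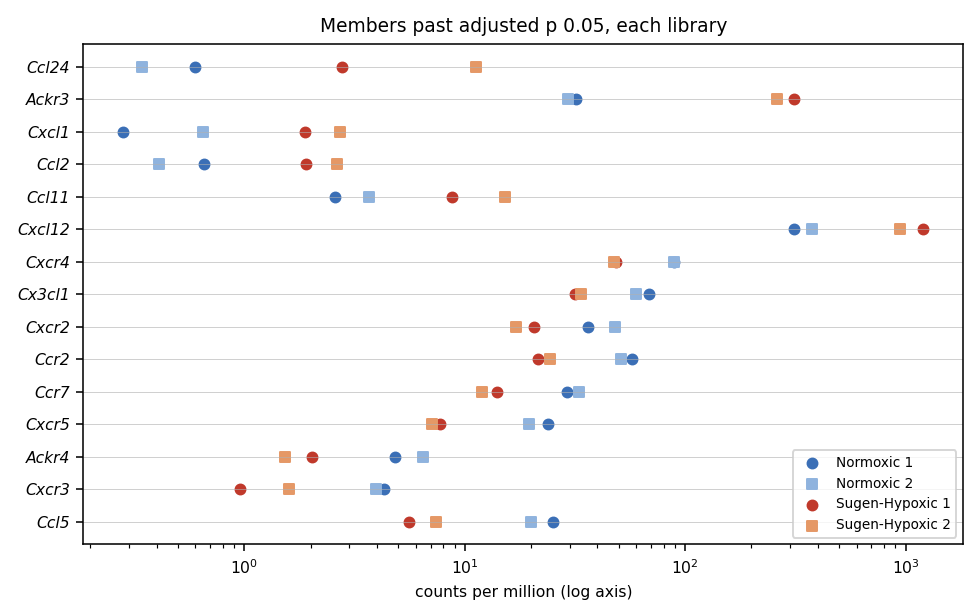
CPM (log axis) of the 15 members that passed the test in each of the 4 libraries, ordered by fold change, with circles for replicate 1 and squares for replicate 2. The 15 were picked by the test on these same libraries, and in all of them the groups do not overlap, against 61.3% of all genes tested. The treated pair lies furthest apart in Ccl24 (2.77 and 11.2 CPM).

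Ligands of the inflammatory CC class made by lymphocytes and myeloid cells were split. Ccl5, made mainly by T and NK cells, fell from 25.1 and 20.03 CPM to 5.60 and 7.41 CPM, 3.31-fold lower (-1.73 ± 0.18, adjusted p = 0.00748 in edgeR's test, and 0.0765 and 0.0482 without normoxic replicate 1 or 2). Ccl3 and Ccl4, inflammatory proteins of macrophages and lymphocytes, had values of -1.18 and -1.09 and did not pass (adjusted p = 0.0917 and 0.164). Ccl6 and Ccl9, rodent chemokines of myeloid cells that act on Ccr1, were higher in treated replicate 2 than in any other library. Ccl6 was at 238 and 222 CPM in normoxia and at 239 and 454 CPM after treatment, and Ccl9 was at 25.8 and 25.9 CPM and then at 32.2 and 108 CPM. Their treated levels, 1.57-fold and 2.82-fold above normoxia, did not pass (adjusted p = 0.182 and 0.120). Ccr1, a receptor of monocytes and neutrophils, was at 19.2 and 19.3 CPM in normoxia and at 18.8 and 27.03 CPM after treatment (0.32, adjusted p = 0.258).

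The libraries of a group differed in several ligands. Treated replicate 2 was more than 2-fold above treated replicate 1 in 9 of 32 tested ligands (Ccl9, Ccl17, Cxcl13, Ccl8, Ccl24, Ccl7, Ccl20, Cxcl5 and Cxcl3), in 3 of 21 receptors and in 5.52% of all genes tested, and the reverse held in 2 ligands, 0 receptors and 474 of the 18783 genes. Normoxic replicate 2 was likewise more than 2-fold above normoxic replicate 1 in 4 of 32 ligands (Cxcl1, Cxcl9, Ccl20 and Cxcl3), 0 receptors and 2.46% of all genes, and the reverse held in 1 ligand (Cxcl2). The summed levels of macrophage markers were also highest in treated replicate 2. The summed level of 9 alveolar macrophage markers was 1110 and 995 CPM in normoxia and 1890 and 4830 CPM in treated replicates 1 and 2, of which Chil3 took 684, 601, 1545 and 4337 CPM. That of 11 markers of interstitial and recruited macrophages was 779 and 719 CPM and then 834 and 1638 CPM. In the first list 1 of 9 markers rose and 1 fell, and in the second 3 of 11 rose and 0 fell. No marker of either list was at 0 in all libraries, and their part in the ligands' values was not tested.

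Of the 2 ligands that are made as membrane proteins, 1 fell. Cx3cl1, fractalkine, a ligand anchored in endothelial and epithelial membranes, fell from 68.8 and 60.1 CPM to 31.5 and 33.7 CPM, 1.88-fold lower (-0.91 ± 0.09, adjusted p = 0.00674 in edgeR's test, and 0.0700 and 0.0445 without normoxic replicate 1 or 2). Its receptor Cx3cr1, on patrolling monocytes and NK cells, was at 31.9 and 27.8 CPM and then at 17.1 and 22.6 CPM (-0.52, adjusted p = 0.0763). Cxcl16, the other membrane-anchored ligand, was at 72.5 and 74.6 CPM in normoxia and at 74.0 and 89.4 CPM after treatment (0.22, adjusted p = 0.170), and its receptor Cxcr6, on T and NK T cells, was at 5.68 and 5.12 CPM and then at 2.90 and 3.37 CPM (-0.72, adjusted p = 0.0568).

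Cxcl15, lungkine, a chemokine of lung epithelium, was the most abundant member. It stood at 1606 and 1576 CPM in normoxia and at 1586 and 1826 CPM after treatment (0.17 ± 0.10, adjusted p = 0.297), groups that overlapped. Per length it supplied 57.8 to 66.2% of the summed ligand level of a library, and the next in order were Ccl6, Cxcl12, Cxcl14 and Cxcl17 at mean levels of 536, 290, 214 and 93.0 against 2580 for Cxcl15. Cxcl12 and Cxcl14 exchanged places, since Cxcl14 stood above Cxcl12 per length in the normoxic mean (253 and 139) and below it in the treated mean (176 and 441). Cxcl14, a constitutive chemokine of epithelium and fibroblasts, was at 155 and 125 CPM and then at 90.2 and 101 CPM, and its -0.49 narrowly missed the threshold (adjusted p = 0.0558). Cxcl17, a mucosal chemokine, was at 22.9 and 20.97 CPM and then at 15.8 and 25.4 CPM (-0.02, adjusted p = 0.954).

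Ligands of lymphoid homing gave 0 calls among 5 tested. Cxcl13, which draws B cells through Cxcr5, was at 9.04 and 8.12 CPM in normoxia and at 2.63 and 11.8 CPM after treatment, with the treated libraries below and above the normoxic ones. Ccl19, Ccl25, Ccl27a and Ccl28 had log2 fold changes between -0.23 and 0.20. Ccl21a, the lymphatic ligand of Ccr7, was listed at 0 reads in all 4 libraries, and the 6 gene records of the Ccl21 family held 12 reads in all. Multimapping reads were left out of the gene counts, and these genes have near-identical copies, so the 0 is no measure of their expression and no fold is given. The same limit holds for Ccl19 and Ccl27a, at 115 and 751 reads over the 4 libraries. Ccl20, the ligand of Ccr6, had the highest log2 fold change of the ligands that did not pass (2.49, adjusted p = 0.109). The interferon-induced ligands Cxcl10 and Cxcl9 had values of 0.63 and 0.22 (adjusted p = 0.246 and 0.839), and Xcl1, made by T and NK cells, one of -0.60 (adjusted p = 0.403).

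The signalling receptors that passed all fell, 6 of 17 tested. Ccr2, the receptor that brings monocytes out of marrow and blood, fell from 57.4 and 50.9 CPM to 21.5 and 24.4 CPM, 2.25-fold lower (-1.17 ± 0.09, adjusted p = 0.00497 in edgeR's test). Ccr7, which guides T cells and dendritic cells to lymph nodes, fell from 29.2 and 33.0 CPM to 14.0 and 11.9 CPM, 2.29-fold lower (adjusted p = 0.00675). Cxcr5, the B cell and follicular receptor, fell from 23.97 and 19.5 CPM to 7.69 and 7.07 CPM, 2.81-fold lower (adjusted p = 0.00616). Cxcr3, the X-linked receptor of activated T and NK cells, fell from 4.32 and 3.97 CPM to 0.960 and 1.59 CPM, 3.09-fold lower (adjusted p = 0.0256). The remaining pair, Cxcr4 and Cxcr2, fell as described above. In all 6 the treated libraries lay below both normoxic ones, as they did in 12 of the 17 tested signalling receptors, against 40.0% of all genes tested.

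Their calls differed in how far they held. Without normoxic replicate 1 or 2 the adjusted p was 0.0643 and 0.0369 for Ccr2, 0.0691 and 0.0673 for Ccr7, 0.0671 and 0.0369 for Cxcr5 and 0.194 and 0.154 for Cxcr3. Among the signalling receptors that did not pass, Xcr1, of cross-presenting dendritic cells, was closest (-1.45, adjusted p = 0.0506), followed by Ccr6 (-0.84, adjusted p = 0.0524), Cxcr6 and Ccr9 (-1.34, adjusted p = 0.0647). Ccr4 and Ccr8, of regulatory and type 2 T cells, had values of -1.23 and -0.39 (adjusted p = 0.111 and 0.647). Ccr10 and Ccr1l1 had 26 and 18 reads over the 4 libraries and were not tested.

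Markers of the leukocytes that carry these receptors were lower in the same libraries. All 7 B cell markers fell, with a median log2 fold change of -1.34 beside -1.49 for Cxcr5, and their summed level went from 287 and 269 CPM to 93.3 and 114 CPM. Of 10 T cell markers 8 fell (median -1.01; 101 and 93.9 CPM against 54.6 and 58.1 CPM), and of 8 NK cell markers 7 fell (median -1.84; 61.9 and 49.1 CPM against 13.9 and 14.9 CPM), beside -1.73 for Ccl5 and -1.63 for Cxcr3. Of 8 neutrophil markers 5 fell and 0 rose (median -1.19; 465 and 616 CPM against 267 and 226 CPM), beside -1.08 for Cxcr2. No marker of these 4 lists was at 0 in all libraries. Their part in the receptors' values was not tested.

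Fewer monocyte and dendritic cell markers passed. Ccr2 stood at -1.17 while 1 of 7 monocyte markers fell (Treml4) and the median of the list, taken without Ccr2 and Cx3cr1, was -0.29, at 2234 and 2151 CPM in normoxia against 1844 and 1705 CPM after treatment. Ace, which endothelium also expresses, made 1428 to 1883 CPM of these sums. Of 8 dendritic cell markers, taken without Xcr1, 2 fell and 0 rose (median -0.30; 107 and 108 CPM against 102 and 117 CPM), and Clec9a, which marks the same dendritic cells as Xcr1, had a value of -1.25 that did not pass (adjusted p = 0.0537), beside -1.45 for Xcr1. The difference between a receptor and its marker list was not tested.

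**Figure D4:**
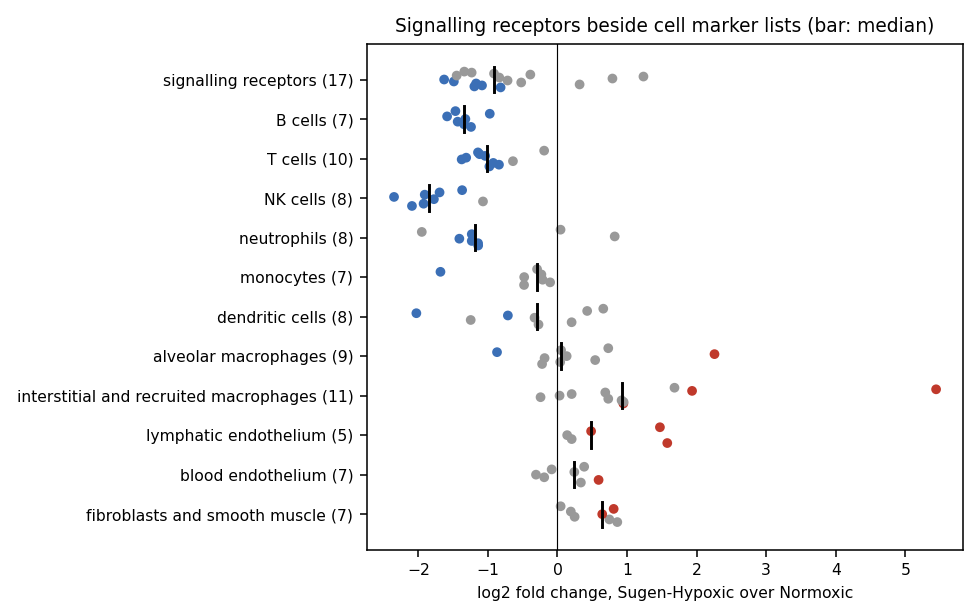
Log2 fold change (Sugen-Hypoxic over Normoxic) of the 17 tested signalling receptors in the top row and of marker genes of cell types below, each point a gene, red or blue where it passed as higher or lower, with a bar at the median. The receptors run from -1.63 to 1.24, with a median of -0.91. Marker medians are -1.34 for B cells, -1.01 for T cells, -1.84 for NK cells and -1.19 for neutrophils. Those of monocytes and dendritic cells are -0.29 and -0.30. Macrophage, lymphatic and fibroblast markers lie mostly at or right of 0.

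The atypical receptors did not share a direction. Beside the rise of Ackr3, Ackr4, which takes up Ccl19, Ccl21 and Ccl25, fell from 4.81 and 6.49 CPM to 2.02 and 1.53 CPM, 3.03-fold lower (-1.60 ± 0.25, adjusted p = 0.0194 in edgeR's test, and 0.104 and 0.154 without normoxic replicate 1 or 2). Ackr2, which clears inflammatory CC chemokines, was at 54.5 and 56.4 CPM in normoxia and at 92.6 and 68.1 CPM after treatment, without overlap, and its 0.61 missed the threshold (adjusted p = 0.0591). Ackr1, a receptor of venular endothelium and red cells, was at 0.506 and 0.481 CPM and then at 0.174 and 0.184 CPM (-1.39, adjusted p = 0.0938). Per length the 4 genes together supplied 19.4 and 19.2% of the summed receptor level in normoxia and 66.4 and 59.3% after treatment.

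Of the markers of vessels and stroma, which carry several atypical receptors, 0 fell. Of 5 lymphatic endothelial markers 3 rose, Prox1 2.99-fold, Mmrn1 2.78-fold and Flt4 1.40-fold. Their summed level, with that of Lyve1 and Pdpn, was 527 and 497 CPM in normoxia and 661 and 629 CPM after treatment. Lyve1 made 214 to 273 CPM and Pdpn 137 to 163 CPM of these sums, and neither passed (1.15-fold and 1.10-fold). Of 7 blood endothelial markers 1 rose and 0 fell (5959 and 5804 CPM against 6619 and 5797 CPM), and of 7 fibroblast and smooth muscle markers 2 rose and 0 fell (2267 and 2518 CPM against 3057 and 3934 CPM). The 9.81-fold rise of Ackr3 and the 3.27-fold rise of Cxcl12 stand beside ratios of 1.26, 1.06 and 1.46 for these 3 sums. Alveolar type 2 markers gave 0 calls of 6, club and ciliated markers 3 lower of 5, mesothelial markers 1 lower of 4, and platelet and red cell markers 0 of 6 and 0 of 5. Their part in the members' values was not tested.

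The members were also set side by side as known ligand and receptor pairs. Of 50 pairs, 43 had both sides tested and 4 had both sides past the threshold. Taken singly, 21.9% of the tested ligands and 38.1% of the tested receptors passed, and the count of pairs was not tested against these shares. In 3 of the 4 the ligand rose and the receptor fell (Ccl2 with Ccr2, Cxcl1 with Cxcr2, and Cxcl12 with Cxcr4), and in the other, Cxcl12 with Ackr3, both rose. Since 5 of the 7 called ligands rose and 7 of the 8 called receptors fell, the opposite directions are no separate result. These pairs share members and the same 4 libraries and are not independent of each other.

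Many of these genes lie next to each other, and neighbours did not all share a direction. On chromosome 11 the run from Ccl2 to Ccl1 at 82035571 to 82305690 (GRCm38) also holds Ccl7, Ccl11, Ccl12 and Ccl8, and all 5 tested had positive log2 fold changes from 0.70 to 2.15, with Ccl2 and Ccl11 past the threshold. The sign of Ccl8 rested on treated replicate 2, without which its value was -0.95. The next run on this chromosome, from Ccl5 to Ccl4 at 83525778 to 83664683, was divided, with Ccl5 called as lower, Ccl3 and Ccl4 negative and Ccl6 and Ccl9 positive. On chromosome 5 the run from Cxcl5 to Cxcl2 at 90759360 to 90905938 held the called Cxcl1 (2.37) next to Cxcl2 (-0.82), which did not pass and turned to 0.29 without normoxic replicate 1 and to 1.13 with the share of males in the fit. On chromosome 8 Cx3cl1 fell between Ccl22 and Ccl17, which did not pass. On chromosome 9 a run of receptors begins with Ccr9 at 123678439 and holds Ccr2 (124101950 to 124113557), which fell, and Ccr1, which had a positive value and did not pass. The other members that passed lie apart from these runs, among them Cxcl12, Ackr3 and Cxcr4 at the positions given above. The rest are Ccl24 on chromosome 5 (135569937 to 135573049), Ccr7 on 11 (99144196 to 99155077), Cxcr2 on 1 (74153989 to 74161246), Cxcr5 and Ackr4 on 9 (44511787 to 44561877 and 104084157 to 104126933) and Cxcr3 on X (101731535 to 101734269).

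**Figure D5:**
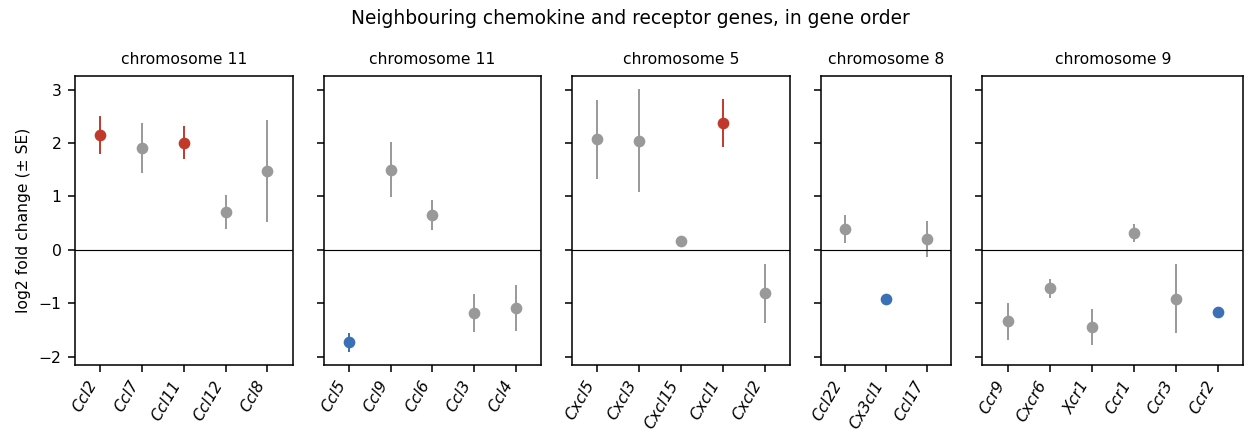
Log2 fold change (Sugen-Hypoxic over Normoxic, ± SE) of tested members in runs of at least 3 tested neighbours, in gene order along each chromosome, red or blue where the gene passed as higher or lower. The first run on chromosome 11 lies above 0 (0.70 to 2.15), though Ccl8 went to -0.95 without treated replicate 2, and the other runs hold values of both signs.

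Genes that act with chemokines were taken from a written list of G-protein subunits, kinases, arrestins, migration factors and proteases. Of 63 members, all tested, 7 rose and 12 fell, with a median log2 fold change of 0.00, beside the 5.51% and 6.01% of all genes. The largest rise was that of Mmp12, a macrophage elastase that cuts chemokines, from 6.23 and 5.12 CPM to 72.3 and 344 CPM, with treated replicate 2 above replicate 1 (5.25 ± 0.79, adjusted p = 0.0180). Mmp2, a matrix protease that cuts Cxcl12, rose 2.01-fold (adjusted p = 0.00922 in edgeR's test), and Tiam1, an activator of Rac, 1.62-fold (adjusted p = 0.00562). The sheddases that release Cx3cl1 and Cxcl16 from membranes, Adam10 and Adam17, rose by 0.47 and 0.55 on the log2 scale. Mmp9, a protease of neutrophils, fell 2.35-fold, and Rac2, Gng2, Rasgrp2 and Was, signalling genes of leukocytes, fell by 0.85, 0.74, 0.72 and 0.70 on the log2 scale.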

How the data were processed

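The authors deposited raw counts of reads for every gene, in columns for unstranded reads and for each strand. Per the submitters' processing notes, STAR 2.5.1b, HTSeq and GRCm38.p4 were used. The gene annotation and the strand protocol were not given in the sources used here. The antisense column held 20.9 to 24.9 times the counts of the sense column and was used. Summary rows stayed out of library sizes (6.45 to 7.55% of reads unmapped, 4.5 to 4.54% multimapping, 7.73 to 9.98% without a feature, 1.1 to 1.13% ambiguous). Symbols, lengths and coordinates came from GENCODE M21 (GRCm38), which matched 47310 of 47729 records, and promoters from RefSeq (GRCm38.p6).

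Genes kept by filterByExpr (18783) were tested with edgeR 4.0.16 in R 4.3.3 (quasi-likelihood, TMM factors, group as the only term, two-sided, Benjamini-Hochberg at 0.05), after a check on simulated data. Standard errors derive from the F statistic. CPM values use gene counts without TMM factors. The alternatives were other scalings, no filter, DESeq2 1.42.0, unstranded counts, male fraction as a covariate, exon length and each library left out. Results of 1 member are not reported here. The members and lists were chosen with earlier results of these data known. Values in every library are given for members past the threshold, the 12 ligands and 10 receptors highest per length and all Ackr genes. Cognate partners are given by fold. Ccl20, Ccl25, Ccl28, Xcl1, Xcr1, Ccr6, Ccr8, Ccr9, Adam10 and Adam17 were named after their values were seen.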

Additional observations from a re-analysis of the deposited data

How the results depend on the processing

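No paired analysis was possible because the labels carry no replicate numbers. All 15 called members kept their call and direction with RLE, upper-quartile or no factors, no expression filter, DESeq2 and unstranded counts. For ligands higher, ligands lower, receptors higher and receptors lower (5, 2, 1 and 7), no expression filter gave 11, 4, 3 and 13, DESeq2 gave 7, 3, 2 and 12, and the male fraction 0, 0, 0 and 0 (members called: 15, against 31, 24 and 0). Over all genes the main fit called 2163 of 18783, no filter 3657 of 27235, DESeq2 3036 of 27235 and the male fraction 11 of 18783. The 4 fits with 1 library left out gave 0 to 17, 0 to 6, 1 to 5 and 0 to 14. The ligand median of 0.22 ran from 0.0854 to 0.61 in them, the receptor median from -0.94 to -0.81 and the difference from 1.02 to 1.44. The cause of these moves was not tested. Several members that did not pass changed sign in at least 1 alternative, among them Ccl8, Cxcl2, Ccl19, Ccl22, Ccl25, Ccl27a, Ccl28, Cxcl9 and Ccr8. With 1 library left out Cxcl17 (-0.02) ran from -0.39 to 0.27, with 0.06 without normoxic replicate 1, Ccl17 (0.20) from -0.40 to 0.63 and Cxcl13 (-0.19) from -1.62 to 0.51, and Cxcl17 went to 0.12 with the male fraction. A group left with 1 library was assumed to vary like the other. With the longest transcript as gene length the summed normoxic ligand level went from 3752 to 3190 and that of receptors from 484 to 404 in normoxia and from 596 to 503 after treatment. Depth limits the members of low count, down to 79 reads over the 4 libraries for Xcl1, the lowest tested.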
